A study of Mus musculus with 42 samples.

Results

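Secreted inhibitors of Wnt signaling were followed through 42 single retinal progenitor cells (RPCs) of CD-1 mice, an outbred strain. The set comprised 8 of the 18194 genes measured, taken by gene symbol: the secreted frizzled-related genes Sfrp1, Sfrp2, Sfrp5 and Frzb, the Dickkopf genes Dkk1, Dkk2 and Dkk3, and Wif1. The cells came from embryonic days E12.5 (11 cells), E13.5 (4), E14.5 (2), E15.5 (1) and E16.5 (11) and from the day of birth, P0 (13), with no treatment or engineered allele named, and each cell was measured on 1 array. They were picked at random and recognized as RPCs afterwards from their profiles, by a score built on gene clusters of Ccnd1, Fgf15, Crym and Sfrp2 itself, so that the presence of Sfrp2 is not independent of how the cells were chosen. A gene's value in a cell was its highest MAS 5.0 signal over all of its probe sets, on a linear scale. Presence means a signal of at least 1000, the background level of the study.

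Wnt proteins bind Frizzled receptors and the co-receptors Lrp5 and Lrp6, and through them stabilize beta-catenin, which acts on target genes together with Tcf and Lef factors. Inhibitors released from cells act at this first step. The frizzled-related proteins carry a cysteine-rich domain like that of the receptors and bind Wnts, as does Wif1 through its own domain, whereas Dkk1 and Dkk2 bind Lrp5 and Lrp6 together with Kremen proteins. Dkk3 is the divergent member of the Dickkopf family and is not regarded as a typical Lrp6 ligand. In the developing eye, Wnt signaling is known for its roles in the ciliary margin and the pigment epithelium.

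A cell was positive for 1386 to 5253 genes (median 3034). Retinal progenitor markers (7 measured) were positive in 205 of 294 gene and cell values (69.7%), and each cell had 1 to 7 of them. They include Ccnd1 and Fgf15, whose gene clusters served to recognize the cells, so that this share is not independent of that choice. Positive values made up 27.7% for Müller glial markers, 25.9% for ganglion cell, 14.0% for ciliary margin, 11.5% for blood and endothelial, 9.82% for amacrine and horizontal cell, 5.16% for photoreceptor, 4.17% for lens, 3.27% for pigment epithelium and 2.38% for mesenchyme markers. At E16.5, 5 arrays (cells J1, J2, J4, E8 and F1) showed an unusual pattern of the 18 hybridization control probe sets, with an SD of their log2 departures of 0.64 to 0.67, compared with 0.20 or less on the other 37 arrays. Values of E16.5 are therefore also given apart for these 5. The study marks 6 cells as transitional, among them E13.5 cell A6 and E16.5 cells D5, E5 and F1. Since the labels name no animal, a stage counts as 1 sample here, and stages were compared without a test. The 95% intervals of shares are exact (Clopper-Pearson) and those of differences are Newcombe intervals, and both cover only the error of counting cells. Absence, likewise, means a signal under 1000 and not the lack of the transcript.

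Of the 8 inhibitors, 3 were found in many cells and the other 5 in at most 1. Dkk3 was present in 40 cells, Sfrp2 in 29, Sfrp1 in 13 and Frzb in 1, while Sfrp5, Dkk1, Dkk2 and Wif1 were below 1000 in all 42 cells. Thus 4 of the 8 genes were present in at least 1 cell, against 72.6% of all genes measured, and 2 of the 8 in at least 21 cells, against 10.8% of all genes. The inhibitors were positive in 83 of 336 values (24.7%), compared with 17.0% of the values of all genes. Of the 3 genes, Sfrp2 was an early gene and Dkk3 was present in most cells of every stage. Sfrp1 was present in a part of the embryonic cells and in 1 P0 cell. Its share of cells at P0 minus that at E12.5 was -19.6 points, with an interval (from -49.5 to 11.5) that includes 0.

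**Figure D1:**
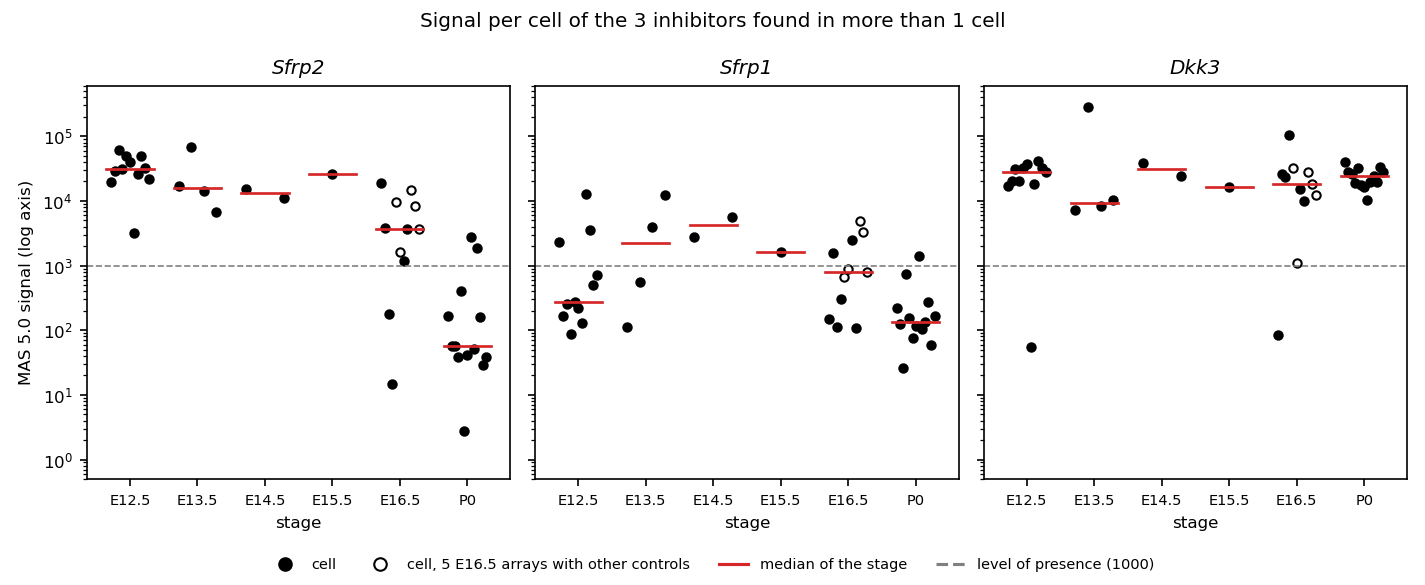
MAS 5.0 signals (vertical axis, log scale) of Sfrp2, Sfrp1 and Dkk3 in each cell by stage (horizontal axis); red lines are stage medians, the dashed line is the level of presence of 1000, and open symbols mark the cells of the 5 arrays with unusual controls. Sfrp2 lies above the dashed line in every cell before E16.5 and in 2 of 13 cells at P0, whereas Dkk3 lies above it in 40 of 42 cells.

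Sfrp2 (chr3:83765750-83774314, GRCm38.p6) encodes a frizzled-related protein known from the progenitor layer of the retina. Its signal was 3184 to 61049.7 at E12.5 (median 31525). At E13.5, it was 17141 in cell A5, 68920.3 in A6, 14173 in A8 and 6844 in B3. The E14.5 cells had 15496 (B1) and 11055 (D7), and the E15.5 cell B7 had 26460.2. All 18 cells collected before E16.5 were thus well above the level of presence, with cell E5 of E12.5 the lowest of them.

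Sfrp2 signals of the 11 E16.5 cells were 14.9 to 19035 (median 3735). The 9 positive cells spread from 1172 (F4) to 19035 (D5), while cells E3 and E5 had 178 and 14.9. At P0, the signals were 2.72 to 2757 (median 56.1), with cells E5 (2757) and F3 (1893) positive and no other cell above 403.6. The P0 cells therefore did not overlap with the E12.5 cells, of which the lowest, E5, had 3184. The next lowest E12.5 cell had 19653, so that 10 of the 11 E12.5 cells also exceeded every E16.5 cell. The share of all genes whose signals separate these stages in the same way was not counted.

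Sfrp2 was lower at E16.5 mainly in the signal of its positive cells and at P0 in the share of them, a division that depends on the level of presence. At E16.5, the share of positive cells was 18.2 points lower than at E12.5 (9 of 11 against 11 of 11 cells, interval from -47.7 to 10.8 points), and the positive cells had a median signal of 0.12 times that at E12.5 (3775 against 31525). Among the 1730 genes present in at least 5 cells at both stages, 26.0% had a median at E16.5 lower by 2-fold or more, the median ratio was 0.71, and 4 genes, Sfrp2 among them, had a ratio of 0.12 or less. Quantile normalization of the arrays gave 0.20 for Sfrp2, and leaving out any of E16.5 cells D6, F1, F4, F5 or J4 gave 0.19. On the 5 arrays with other controls, the median Sfrp2 signal was 8436, and on the other 6 arrays of E16.5 it was 2453, with 4 positive cells.

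At a level of 5000, the share was already lower at E16.5, since 10 of the 11 E12.5 cells, 4 of the 11 E16.5 cells and none of the 13 P0 cells reached it. At 1000, P0 cells were positive for Sfrp2 in 2 of 13 cases and E16.5 cells in 9 of 11, a difference of -66.4 points (interval from -83.5 to -26.5). Between P0 and E12.5, 27 of 18194 genes (0.148%) were lower by 50 points or more, and among all genes Sfrp2 had the lowest difference, at -84.6 points. The score that recognized the cells used an Sfrp2 gene cluster together with others. Among these was that of Crym, which the paper describes as expressed in RPCs of later stages only. The part of this choice of cells in these differences was not tested.

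**Figure D2:**
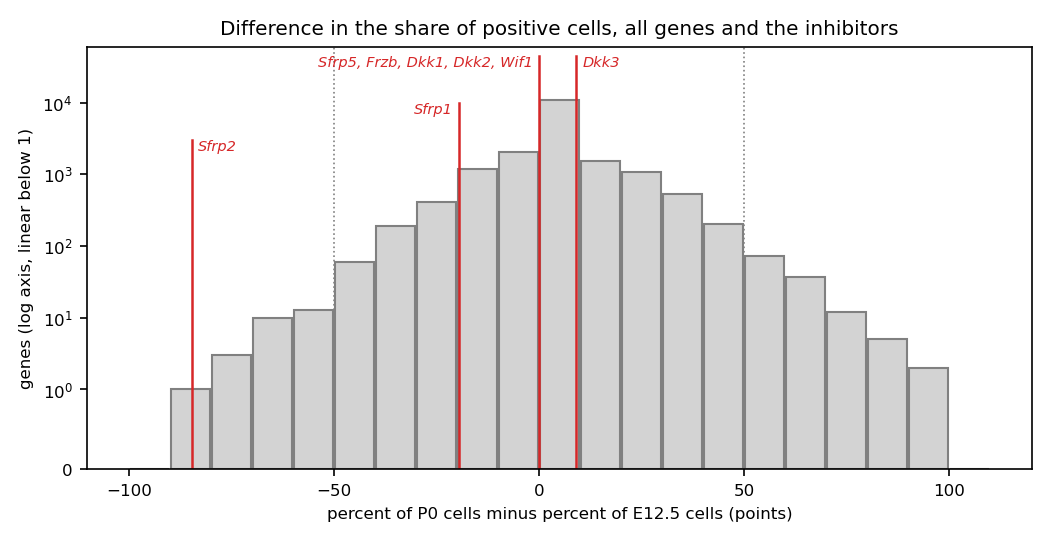
Number of genes (vertical axis, log scale, linear below 1) by the difference between the percent of P0 cells and the percent of E12.5 cells with a signal of 1000 or more (horizontal axis, points), with red lines at the 8 inhibitors and dotted lines at 50 points in each direction. Sfrp2, at -84.6 points, lies at the lower end of the distribution, Sfrp1 is at -19.6, Dkk3 at 9.09, and the other 5 are at 0.

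The 250 bases before the start of transcription are shown for the inhibitor with the largest change, Sfrp2 (chr3:83766071-83766320, plus strand), and for Dkk1 (chr19:30549497-30549746, minus strand), whose gene is known as a target of Wnt signaling but was below 1000 in every cell. The sequences are from RefSeq on GRCm38.p6, were read for 6 of the 8 genes (Sfrp2, Sfrp5, Frzb, Dkk1, Dkk2 and Wif1) and are written 5′ to 3′ with matches in capitals. For Sfrp2, the start used is that of 1 transcript and lies downstream of the first base of the gene given above.
Sfrp2: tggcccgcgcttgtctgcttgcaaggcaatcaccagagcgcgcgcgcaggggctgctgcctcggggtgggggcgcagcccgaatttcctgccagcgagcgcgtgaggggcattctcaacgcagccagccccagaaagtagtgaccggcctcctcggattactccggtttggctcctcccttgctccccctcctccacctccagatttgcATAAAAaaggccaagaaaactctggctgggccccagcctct
Dkk1: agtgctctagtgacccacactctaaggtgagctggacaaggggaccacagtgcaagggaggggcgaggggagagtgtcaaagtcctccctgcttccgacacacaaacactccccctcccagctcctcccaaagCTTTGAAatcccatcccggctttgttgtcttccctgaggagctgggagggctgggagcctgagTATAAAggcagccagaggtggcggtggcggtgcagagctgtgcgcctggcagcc
Capitals mark TATA-like letters (TATAAA or ATAAAA, which overlap where TATAAAA occurs) and Tcf/Lef letters (CTTTGAA or CTTTGAT), searched on both strands. Sfrp2 had ATAAAA at 41 to 36 bases before the start and no Tcf/Lef letters. Dkk1 had CTTTGAA at 117 to 111 bases and TATAAA at 54 to 49 bases before the start, and was the only one of the 6 genes with Tcf/Lef letters. Of 32851 promoters of the same length, 7.48% held the Tcf/Lef letters and 22.8% the TATA-like letters. The matches are a description of these windows.

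Sfrp1 (chr8:23411383-23449632) encodes a second frizzled-related protein and was present in fewer cells than Sfrp2. At E12.5, its signal was 87.5 to 12833 (median 272), and it was present in 3 of 11 cells, A4 (2354), E6 (12833) and F2 (3567). At E13.5, the signals were 111 in cell A5, 567 in A6, 3909 in A8 and 12417 in B3. The E14.5 cells had 2762 (B1) and 5736 (D7), and E15.5 cell B7 had 1643. Sfrp1 was thus present in each of these 3 cells, and in 5 of the 7 cells when E13.5 is included (71.4%, interval from 29.0 to 96.3%).

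At E16.5, Sfrp1 signals were 109 to 4834 (median 794). The 4 positive cells were D6 (1591), F4 (2483), J1 (4834) and J2 (3264), of which J1 and J2 were on the 5 arrays with other controls. The other 3 of these 5 arrays had Sfrp1 signals of 674 (E8), 880.4 (F1) and 794 (J4), just below the level of presence, whereas the 4 negative cells on the other arrays had at most 299. At P0, signals were 26.5 to 1418 (median 134), and cell E5 (1418) alone was positive, close to the level. The stages overlapped, since most cells at E12.5, E16.5 and P0 had a signal below 1000.

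The share of cells with Sfrp1 was 7.69% at P0 and 27.3% at E12.5, a difference of -19.6 points whose interval (from -49.5 to 11.5) includes 0. Against E16.5 (36.4%), the difference at P0 was -28.7 points (interval from -57.6 to 4.58). The difference to E12.5 was -36.4 points after quantile normalization (interval from -64.6 to -5.23) and -9.09 with the mean of probe sets (interval from -37.7 to 14.9), so that whether the interval includes 0 depends on the scaling.

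The 5 probe sets of Sfrp1 did not report the gene alike. The probe set 1428136_at was at 1000 or more in 12 cells and 1448395_at in 7, with 6 cells positive on both. The probe sets 1438620_x_at and 1460187_at were each positive in 1 cell, E12.5 cell E6, and 1416594_at in none. The signal of 12833 in E12.5 cell E6 came from 1460187_at, which did not exceed 912 in any other Sfrp1-positive cell, while 1428136_at read 8614 in the same cell. E16.5 cell F4 was positive through 1448395_at (2483) and had 51.0 on 1428136_at.

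Frzb (chr2:80411970-80447396), which encodes the frizzled-related protein also known as Sfrp3, was present in E16.5 cell F1 (2638) and in no other cell. Its signals elsewhere did not exceed 749, the value of E13.5 cell A6, and the median over the 42 cells was 76.7. Cell F1 is a transitional cell, lay on 1 of the 5 arrays with other controls and had the most genes present (5253). It was also positive for 3 of 8 mesenchyme, 3 of 6 photoreceptor, 3 of 8 amacrine and horizontal cell, 2 of 8 pigment epithelium and 2 of 6 blood and endothelial markers. Each of these was the highest number found in a cell. It had 3 of 7 progenitor markers, 2 of 7 ganglion cell markers and 1 of 8 each for Müller glia, ciliary margin and lens. The part of these markers in the Frzb signal was not tested. Of the 2 Frzb probe sets, 1448424_at gave the 2638 and 1416658_at had 760.2 in the same cell.

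Sfrp5 (chr19:42197971-42202252), the fourth frizzled-related gene, was below 1000 in all cells. Its signals were 14.4 to 330 at E12.5 (median 41.0), 20.0 to 209 in the 7 cells of E13.5 to E15.5, 36.8 to 728 at E16.5 (median 96.9) and 14.7 to 198 at P0 (median 102.6). The highest were those of E16.5 cells F1 (728), J4 (641) and E5 (565), and the stages overlapped.

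Among the Dickkopf genes, Dkk3 (chr7:112116019-112159482) was the most widely present inhibitor. Its signals at E12.5 were 55.5 to 41468 (median 27587). At E13.5, they were 7204 in cell A5, 279567 in A6, 8382 in A8 and 10497.5 in B3. The E14.5 cells had 37961 (B1) and 24019 (D7), and E15.5 cell B7 had 16403. Before E16.5, Dkk3 was thus absent from cell E5 of E12.5 alone, and A6 stood far above the rest.

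At E16.5, Dkk3 signals were 84.1 to 104547 (median 18576.5), with cell D5 (84.1) negative, F1 (1078) just past the level and E5 (104547) the highest. At P0, all 13 cells were positive, with 10456.5 to 40136.7 (median 23892). The signals of 37 of the 42 cells lay between 7000 and 42000, and the 5 others were E12.5 cell E5, E13.5 cell A6 and E16.5 cells D5, E5 and F1. All but the first of these 5 are transitional cells, while the transitional cells B1 of E14.5 (37961) and C5 of P0 (32586) lay within that range. The range was drawn around these values and not fixed beforehand, so the split is a description only.

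The share of cells with Dkk3 was 100% at P0 and 90.9% at E12.5, a difference of 9.09 points (interval from -14.9 to 37.7). In the direction of higher shares at P0, 0.709% of all genes passed 50 points, and none of the 8 inhibitors did. The median signal of the Dkk3-positive cells was 23892 at P0 and 29641 at E12.5, a ratio of 0.81 that became 1.02 after quantile normalization, so that its direction depends on the scaling. The median ratio of the 2194 genes present in at least 5 cells at both stages was 0.87 without it. Of those genes, 16.9% were lower and 5.74% higher by 2-fold or more. At E16.5, the ratio to E12.5 was 0.71, equal to the median ratio of all genes to 2 decimals, where 3.29% of genes were higher by 2-fold or more. The ratios of Dkk3 thus lay near the middle of all genes at both stages, whereas that of Sfrp2 at E16.5 lay at the low end.

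The 2 cells without Dkk3 were both positive for Sfrp2. E12.5 cell E5 had the lowest Sfrp2 signal of its stage (3184), 2088 genes present, a Ccnd1 signal of 191 and 1 of the 7 progenitor markers. E16.5 cell D5 had the highest Sfrp2 signal of its stage (19035), the fewest genes present of all cells (1386), a Ccnd1 signal of 36834 and 3 of the 7 progenitor markers. The cells with the highest Dkk3 signals were E13.5 cell A6, which was positive for 4 of 8 lens markers, and E16.5 cell E5, which had the lowest Sfrp2 signal of the embryonic cells (14.9). The highest number of lens markers, 5, was found in another cell than A6. Of the 2 probe sets of Dkk3, 1448669_at was positive in 39 cells and 1417312_at in 36, and both were in 35 cells.

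Dkk1 (chr19:30545876-30549496) and Dkk2 (chr3:132085266-132180304), the Dickkopf members that bind Lrp6, were below 1000 throughout, and 0 of 42 cells, with the limit of a count of 0 set at 3 counts, allows a share of up to 7.14% for each. Dkk1 signals were 12.8 to 161 at E12.5 (median 50.4), 4.48 to 296 in the 7 cells of E13.5 to E15.5, 31.9 to 620.4 at E16.5 (median 147) and 11.8 to 94.9 at P0 (median 49.8). The 4 highest Dkk1 signals, 620.4 (J2), 385 (E8), 365 (F1) and 302 (J1), were all on the 5 E16.5 arrays with other controls. Dkk2 signals were 2.34 to 118 at E12.5 (median 8.09), 1.89 to 20.8 in the 7 cells of E13.5 to E15.5, 7.84 to 188 at E16.5 (median 33.6) and 1.73 to 153 at P0 (median 11.4), so that its stages overlapped at a low level.

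Wif1 (chr10:121034004-121100642), which encodes Wnt inhibitory factor 1, was also below 1000 in every cell. Its signals were 1.70 to 75.6 at E12.5 (median 8.32), 1.23 to 120.4 in the 7 cells of E13.5 to E15.5, 1.92 to 555 at E16.5 (median 44.6) and 0.66 to 62.1 at P0 (median 7.94). E16.5 cells J4 (555), E8 (467) and F1 (453) had the 3 highest Wif1 signals of all, and the highest on any of the other 37 arrays was 120.4, in E14.5 cell B1.

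The highest signal of each of the 5 rarely present genes, Frzb, Sfrp5, Dkk1, Dkk2 and Wif1, lay on the 5 E16.5 arrays with other controls. Their medians on these arrays were 365 for Dkk1, 453 for Wif1, 237 for Sfrp5, 86.7 for Frzb and 41.7 for Dkk2, compared with 80.8 for Dkk1, 33.6 for Wif1, 86.7 for Sfrp5, 95.3 for Frzb and 13.9 for Dkk2 on the other 6 arrays of E16.5. For Dkk1, the ranges did not overlap (238 to 620.4 on the 5 arrays and 31.9 to 147 on the other 6). The 5 arrays also had more genes present (median 4103) than the other 6 arrays of E16.5 (median 2114.5). The share of all genes with their highest signal on the 5 arrays, or with separate ranges, was not counted, so these values are not read as particular to the inhibitors. Between E16.5 and the other stages, low signals of these genes and the difference between arrays cannot be told apart.

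**Figure D3:**
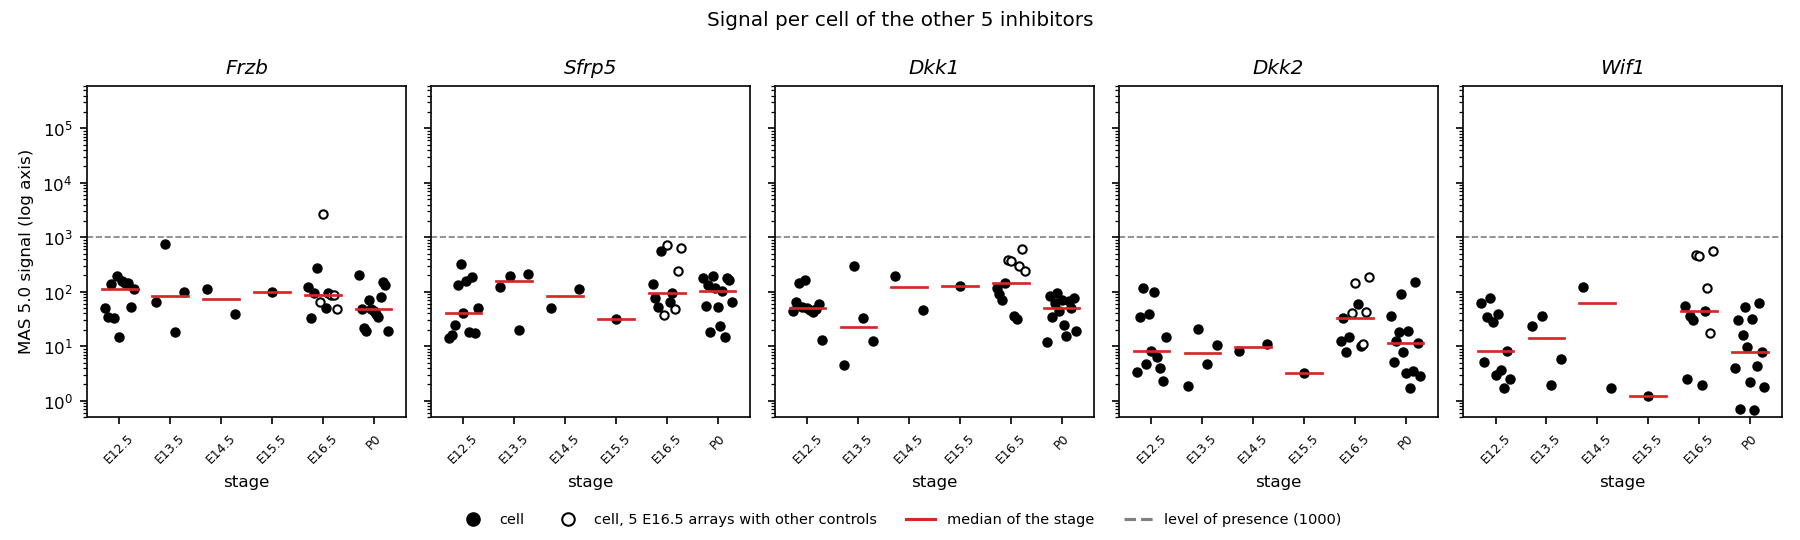
MAS 5.0 signals (vertical axis, log scale) of Frzb, Sfrp5, Dkk1, Dkk2 and Wif1 in each cell by stage (horizontal axis); red lines are stage medians, the dashed line is the level of presence of 1000, and open symbols mark the cells of the 5 arrays with unusual controls. Only 1 of the 210 values, Frzb in E16.5 cell F1, exceeds 1000, and the open symbols hold the highest value in each panel.

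Every cell was positive for at least 1 inhibitor and none for more than 3. There were 15 cells with 1, 13 with 2 and 14 with 3. Without the 5 arrays with other controls, E16.5 had 5 of 6 cells with Dkk3, 4 of 6 with Sfrp2 and 2 of 6 with Sfrp1. The median number per cell was 2 at E12.5, 2.5 at E13.5, 2 at E16.5 and 1 at P0, and the 3 cells of E14.5 and E15.5 had 3 each. At P0, 11 of 13 cells had Dkk3 as their sole inhibitor, against none of the 11 E12.5 cells. At E16.5, the 5 arrays with other controls had a median of 3 and the other 6 arrays a median of 1.5.

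Sfrp1 was found only within cells that had Sfrp2. Only 5 combinations were found: Dkk3 alone in 13 cells, Sfrp2 with Dkk3 in 13, Sfrp1 with Sfrp2 and Dkk3 in 13, Sfrp2 alone in 2, and Frzb with Sfrp2 and Dkk3 in 1. All 13 cells with Sfrp1 were also positive for Sfrp2 (100%, interval from 75.3 to 100%), and these made up 44.8% of the 29 cells with Sfrp2. Before E16.5 every cell had Sfrp2, so that Sfrp1 could not occur without it there, and at E16.5 9 of 11 cells had it. The 13 cells were all positive for Dkk3 as well. The share of other genes found only within cells that had Sfrp2 was not counted. At P0, where Sfrp2 was present in 2 cells, the sole Sfrp1-positive cell, E5, was 1 of them. At a level of 2000, 9 of 10 Sfrp1-positive cells had Sfrp2, the exception being E16.5 cell F4 with an Sfrp2 signal of 1172, and after quantile normalization 12 of 13 did.

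Sfrp2 and Dkk3 shared 27 cells, 93.1% of the cells with Sfrp2 and 67.5% of those with Dkk3, and no cell lacked both. Both genes were present in 10 of the 11 E12.5 cells, in all 7 cells of the next 3 stages, in 8 of the 11 E16.5 cells and in 2 of the 13 P0 cells. Within E12.5, where both were present in nearly all cells, their log2 signals (values under 100 set to 100) varied together, with Pearson's r of 0.94 and Spearman's rho of 0.83 over 11 cells. Without cell E5, r was 0.73 and rho 0.77 (n = 10), and without the 2 cells farthest from the median of Sfrp2, E5 and B4, r was 0.76 and rho 0.85 (n = 9). The points share the scaling of each array and differ in the number of genes present. At E16.5, r was -0.43 and rho -0.14 (n = 11), with cells D5 (Dkk3 84.1) and E5 (Sfrp2 14.9) set to 100 for 1 gene each. At P0, r was -0.34 and rho 0.02 (n = 13), and over all 42 cells r was -0.05 and rho 0.15. The P0 values cannot show whether the genes vary together, since Sfrp2 was present in 2 cells and its median there was 56.1. The relation was thus found at E12.5 and not over all cells, which include those of P0. At E16.5, it was not seen over the 11 cells. The values there were not recomputed without cells D5 and E5, so they do not show that the relation was absent.

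**Figure D4:**
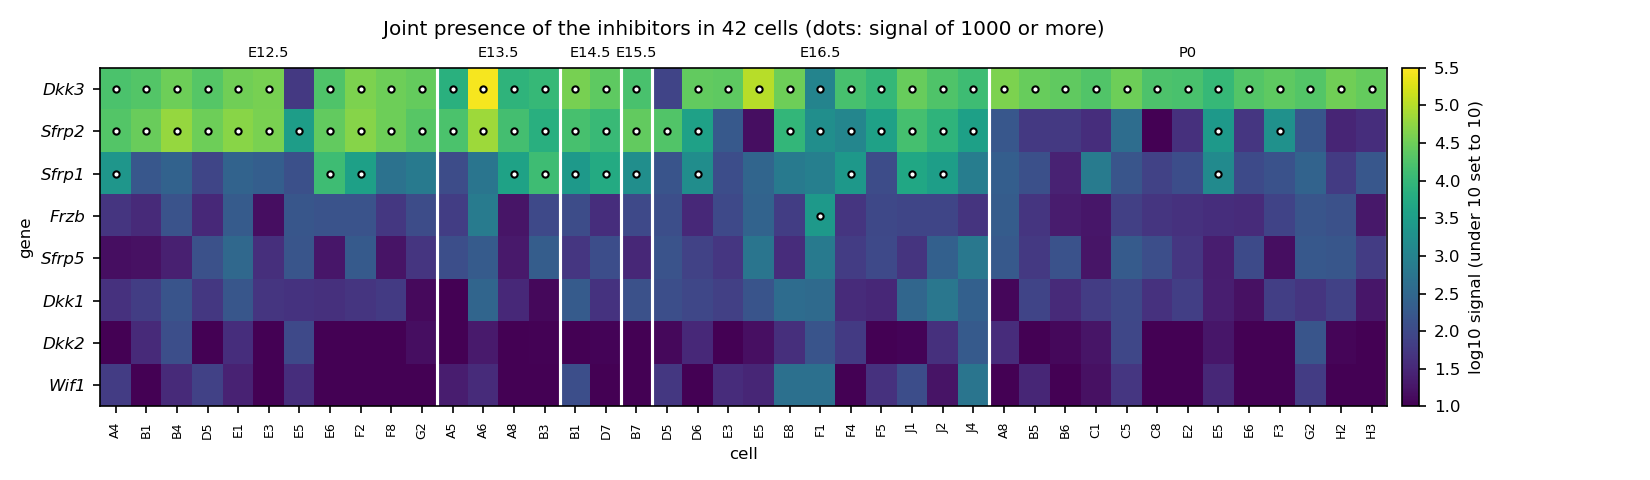
Signals of the 8 inhibitors (rows) in the 42 cells (columns, grouped by stage), with color giving log10 signal and dots marking signals of 1000 or more. Each of the 13 dots of Sfrp1 stands below a dot of Sfrp2, and at P0 the dots of Dkk3 stand alone in 11 of 13 cells.

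**Figure D5:**
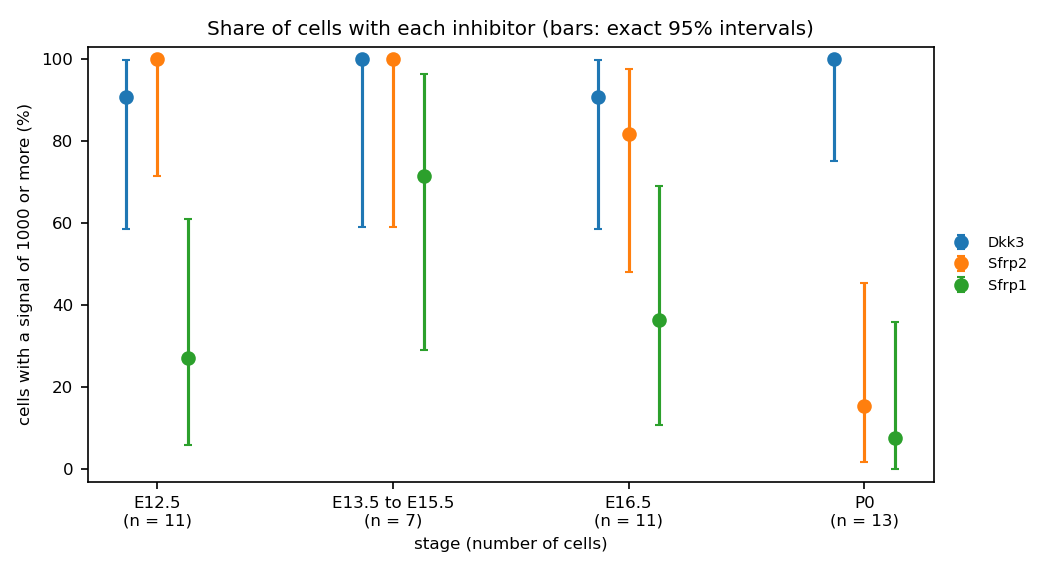
Share of positive cells (vertical axis, percent) for Dkk3, Sfrp2 and Sfrp1 at E12.5, E13.5 to E15.5, E16.5 and P0 (horizontal axis, number of cells in parentheses). Bars are exact 95% intervals; Sfrp2 is at 100% up to E15.5, 81.8% at E16.5 and 15.4% at P0, while Dkk3 stays between 90.9 and 100%.

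The 2 P0 cells with Sfrp2 were among those with many genes present. Cell E5 had 4100 and cell F3 4498 genes present, compared with a median of 3063 at P0, and F3 had the most of its stage. Both had Fgf15 (5759 in E5 and 4296 in F3) above 1000, as did 9 of the 13 P0 cells, and Crym, which was above 1000 in all 13. Of 8 ciliary margin markers, each had 2, Zic1 (1277 in E5, 2891 in F3) and Cdon (3639 in E5, 5214 in F3), where P0 cells had 0 to 2. The rest of that list, Otx1, Msx1, Wfdc1, Zic2, Bmp4 and Mitf, was below 1000 in both cells. Of these, Zic2 was present in 3 of the 13 P0 cells and the others in none. Zic1, a zinc finger factor, was present in 2 of the 13 P0 cells, these 2, and Cdon, a cell surface receptor, in 6. These 2 cells were singled out after their values were seen.

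The other genes of the pathway were taken from lists of known members, with the 2 genes found in the most cells named for each. Among 9 other secreted antagonists, 7 were present in at least 1 cell, led by Igfbp4, an insulin-like growth factor binding protein that can also act on Frizzled and Lrp6, in 37 cells (median positive signal 6726), and by Draxin, an axon guidance protein, in 4. Igfbp4 was present in 11 of 13 cells at P0 and 10 of 11 at E12.5. Igfbp4 was present in at least 1 cell of every stage, as were Dkk3, Sfrp2 and Sfrp1. None of the 9 genes passed 50 points in either direction.

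Of the 3 Dickkopf receptors measured, Kremen1 was present in 15 cells (8 of 13 at P0 and 2 of 11 at E12.5, a difference of 43.4 points), the co-receptor Lrp6 in 10 (3 of 13 at P0 and 5 of 11 at E12.5) and Lrp5 in none. Among 10 Frizzled receptors, the binding partners of Wnts, 9 were present in at least 1 cell. Fzd3 was found in 30 cells, 9 of 13 at P0 and 8 of 11 at E12.5, and Fzd2 in 11, with 1 of 13 at P0 and 6 of 11 at E12.5 (-46.9 points). No gene of these 2 lists passed 50 points in either direction.

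Genes for Wnt ligands, which the frizzled-related proteins and Wif1 bind, were positive in few cells. Of 19 Wnt genes, 10 were present in at least 1 cell, but in 15 of 798 values only (1.88%), compared with 24.7% for the inhibitors and 17.0% for all genes. Wnt7b was the most frequent, in 3 cells, followed by Wnt5b in 2. None was present in the 13 P0 cells or the 11 E12.5 cells, and 8 of the 15 positive values were at E16.5, 7 of them on the 5 arrays with other controls and 5 of these in cell F1. Of 9 genes for R-spondins, which enhance Wnt signaling, and their receptors, 5 were present in at least 1 cell and none passed 50 points. Lgr4, a receptor, was present in 29 cells and Znrf3, a ubiquitin ligase that removes Frizzleds, in 6.

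Of 7 genes known as transcriptional targets of Wnt signaling, 6 were present in at least 1 cell and in 24 of 294 values (8.16%). Nkd1, a feedback inhibitor that acts inside the cell, was present in 11 cells (1 of 13 at P0 and 3 of 11 at E12.5), and Apcdd1, a membrane protein that inhibits Wnt receptors, in 6. Targets were positive in 3 of 91 values at P0 (3.30%) and 7 of 77 at E12.5 (9.09%), and none passed 50 points.

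The genes whose positive cells were most like those of Sfrp1, by the Jaccard index over 42 cells (cells with both genes over cells with either), were Cntln, a centriole protein (0.60, 11 cells), Dlg3, a membrane scaffold (0.57, 20 cells), and Phf14, a PHD finger protein (0.57, 23 cells). All 13 cells with Sfrp1 were among the 23 with Phf14. For Sfrp2, these were Cox8a, a subunit of cytochrome c oxidase (0.84, 30 cells), Atp5j2, a subunit of the ATP synthase (0.83, 35 cells), and Rps28, a ribosomal protein (0.82, 31 cells). They were present in 4, 6 and 4 P0 cells, against 2 for Sfrp2.

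By the Pearson correlation of log2 signals over 42 cells, the genes most like Sfrp2 were Rpl41 (r = 0.71), Rps24 (0.64) and Rps14 (0.64), all of which encode ribosomal proteins and were present in 40 or more cells. Those most like Dkk3 were Atp5pb, a subunit of the ATP synthase (0.64), Hnrnpu, a nuclear RNA-binding protein (0.62), and Srsf3, a splicing factor (0.62). Array scaling and the number of genes present are common to the signals of a cell, and the correlations are given as a description.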

How the data were processed

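After 35 cycles of PCR, the cDNA of each cell was hybridized to 1 array (Affymetrix mouse 430 2.0). The deposited intensity values are linear MAS 5.0 signals, which the authors brought to a common target of 500. The mean after trimming 2% of probe sets at each end was 500.002 to 500.02 on all arrays. Reads and counts do not apply to arrays, and the number of arrays limits the precision. Of 45101 probe sets, 34958 had 1 gene symbol in the platform annotation, 932 with several symbols were left out, and 9211 had no name here. All 16 probe sets of the inhibitors matched a RefSeq gene of the same symbol.

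Each gene took its highest probe set signal, with presence at 1000 or more. Differences between stages were called at 50 points and ratios of median positive signals at 2-fold, for genes positive in at least 5 cells of both stages. No p-value was computed, since cells are not replicates. No 2 arrays had identical values (largest correlation 0.66 of 861 pairs). The genes and lists were chosen with earlier results of these data known. Named genes were the 8 inhibitors, for each other list the 2 genes in most cells, the 3 genes of highest Jaccard index for inhibitors in 5 to 37 cells, and the 3 of highest correlation for inhibitors in 20 or more cells, among genes present in 10 or more. Marker lists covered retinal progenitor, ganglion, amacrine and horizontal, photoreceptor, Müller glial, ciliary margin, pigment epithelium, lens, mesenchyme, and blood and endothelial cells.

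Alternatives were levels of 500, 2000 and 5000, the mean of probe sets, no shared probe sets (_x_at, _s_at), quantile normalization, and leaving out cells or arrays. The calculation of differences over all genes was run on simulated presence calls with large known differences, which checks the code and not the results. Python 3.11.15 with numpy 2.4.6, pandas 2.3.3, scipy 1.17.1 and matplotlib 3.10.9 was used.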

Additional observations from a re-analysis of the deposited data

Results flagged for a closer look

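E13.5 cell A6 stood apart from the other 3 cells of its stage for 4 of the 8 inhibitors. The gap to the next cell was past Dixon's 95% critical value for the range of 4 samples. For normally distributed values, chance passes it in about 1 of 20 groups, but the signals here were on a linear scale. All 4 gaps come from 1 array. The share of all genes that set A6 apart in this way was not counted, so the 4 are not read as a trait of the inhibitors. Its signals were 279567 for Dkk3 (next highest 10497.5), 68920.3 for Sfrp2 (next 17141), 749 for Frzb (next 99.2) and 296 for Dkk1 (next 33.5). Of these, Frzb and Dkk1 were below the level of presence. The cell is a transitional cell, had 3554 genes present, a Ccnd1 signal of 195597, 3 of 7 progenitor markers and 4 of 8 lens markers, where the highest number in a cell was 5.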

How the results depend on the processing

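Of 244 values recomputed under other settings, 229 stayed within their interval or spread and 15 moved. The tally does not measure robustness. Some values could not move, such as P0 minus E12.5 differences when only the 5 E16.5 arrays were left out. The intervals were wide, and ratios had a spread of fixed width (0.54 to 1.21 for the Dkk3 ratio of 0.81). The Dkk3 ratio of P0 over E12.5 stayed within its spread but turned from 0.81 to 1.02 with quantile normalization, which also gave -36.4 points for Sfrp1 (P0 minus E12.5), with an interval that excludes 0. With presence at 500, Sfrp1 was in 47.6% of cells and 7 inhibitors were present in at least 1 cell. At 2000, the Sfrp2 signal ratio of E16.5 over E12.5 was 0.27. At 5000, Sfrp1 was in 7.14% of cells, Sfrp2 in 50%, Sfrp2 with Dkk3 in 47.6%, the median number of inhibitors per cell was 1 and the positive share was 18.75%. With the mean of probe sets, Sfrp1 was in 16.7% of cells (7 of 42). The Sfrp2 ratio was 0.20 after quantile normalization and 0.19 without E13.5 cell A6 and E16.5 cell F1, an alternative chosen after seeing the data, and could not be had without the 5 arrays, which left 4 positive cells. Frzb was in 0 cells at 5000, without transitional cells, without the 5 E16.5 arrays, and without A6 and F1.

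Leaving out 1 cell at a time, the P0 minus E12.5 difference was -91.7 to -83.3 points for Sfrp2, -27.3 to -12.3 for Sfrp1 and 0 to 10 for Dkk3, and 1 inhibitor passed 50 points each time. The median number at E13.5 was 2 to 3. Ratios were 0.12 to 0.19 for Sfrp2 (E16.5 over E12.5), 0.63 to 0.80 for Dkk3 (E16.5 over E12.5) and 0.73 to 0.87 for Dkk3 (P0 over E12.5). No paired analysis was possible because each cell belongs to 1 stage and the labels pair no cells across stages.

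Loss of transcripts in amplification was not measured. Stages of 1 to 4 cells give wide intervals, and no animal is known for any cell.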
